A study of Mus musculus with 24 samples.

Results

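Wide H3K27ac regions were examined in cultured mouse vascular smooth muscle cells (VSMCs), with or without a cholesterol load. A wide region was a region of the control 24 h H3K27ac list whose end minus start was at least 5000 bp. This rule took 1779 of the 53053 regions of that list, or 3.35%, and 255368 regions stood in the 5 lists together. The 1779 regions held 16.7% of the bases and 24.2% of the tags (sequenced ChIP fragments) of all regions of the list. Members were chosen by their length in the control 24 h list, and length and tags in the control 24 h list are therefore given as a description only.

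H3K27ac is acetylation of lysine 27 on histone H3, placed mainly by the acetyltransferases p300 and CBP, and it marks active promoters and enhancers. Most marked sites are short, but at some loci neighbouring marked sites run together into long stretches, and such stretches are often found at highly transcribed genes and at genes that define a cell type. In smooth muscle, contractile genes are driven by serum response factor (SRF) with its myocardin-family partners through a sequence called the CArG box, while AP-1, TEAD and KLF factors act at many enhancers of mesenchymal cells.

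The cells were primary VSMCs from thoracic aortas of C57BL/6J mice aged 8 to 10 weeks, used before passage 5. Treated cells received 20 µg/mL of a cholesterol and methyl-β-cyclodextrin complex, given with 0.2% BSA over 24 or 48 h, and control cells received BSA alone and were taken at 0, 24 or 48 h. Controls had neither cholesterol nor its carrier, so effects of the cholesterol and of the carrier cannot be told apart. RNA was measured in 14 libraries, 3 per group apart from the control 48 h group with 2. H3K27ac was measured in 1 library per condition (5 in all, with 5 input libraries of unprecipitated chromatin), so no difference between region lists has a replicate check. The study describes the RNA libraries as biological replicates, while the labels do not say whether they came from separate cultures or animals, and p-values therefore measure only the spread between these libraries.

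Depth and signal differed between the H3K27ac libraries. Total tags ran from 15344470 (control 0 h) to 24609788 (control 24 h), and the RNA libraries held 2726790 to 7590970 tags in genes. The control 0 h list stood apart: 16.94% of its tags lay in regions, against 37.35% to 43.77% in the other lists, and it held 127 regions of at least 5000 bp, against 1529 to 1791. The smooth muscle marker list was expressed throughout, with a summed level of 108 to 233 RPKM (reads per kilobase of gene, scaled to the reads of the library) over the 14 libraries. The summed level of the endothelial markers was 0.303 to 0.686 RPKM that of the macrophage markers 2.2 to 6.9 RPKM and that of the fibroblast markers 70.2 to 166 RPKM. Most of the last was Col1a1 (a mean of 74.5 RPKM at control 24 h), with Dcn and Lum at 0.0956 and 0.0191 RPKM.

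Sequences at the centres of the 3 longest wide regions and of the fourth are shown because they stand for the core of the longest acetylated stretches. Each is the central 200 bp of the region on the plus strand of mm10, read from the GRCm38.p6 genome. Capitals mark the letters of any searched motif on either strand, namely TGANTCA (AP-1), GGAATG (TEAD), TGATGCAA (ATF4), CCNCNCCC (KLF) and the CArG box, and overlapping matches of the KLF letters are merged into 1 capital run. The windows are the Hoxb cluster centre at chr11:96323437-96323636, the Myh9 centre at chr15:77815900-77816099, the centre near Mical2 at chr7:112286848-112287047 and the Nfix centre at chr8:84782212-84782411, all of them in introns by the GENCODE annotation.
Hoxb cluster: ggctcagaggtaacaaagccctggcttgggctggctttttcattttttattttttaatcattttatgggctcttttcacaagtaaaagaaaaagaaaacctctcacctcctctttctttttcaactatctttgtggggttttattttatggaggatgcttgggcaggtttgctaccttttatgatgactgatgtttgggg
Myh9: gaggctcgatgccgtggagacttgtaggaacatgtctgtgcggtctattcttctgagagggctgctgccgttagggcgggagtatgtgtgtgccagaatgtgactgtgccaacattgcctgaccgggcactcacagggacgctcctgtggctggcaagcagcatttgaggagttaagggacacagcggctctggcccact
near Mical2: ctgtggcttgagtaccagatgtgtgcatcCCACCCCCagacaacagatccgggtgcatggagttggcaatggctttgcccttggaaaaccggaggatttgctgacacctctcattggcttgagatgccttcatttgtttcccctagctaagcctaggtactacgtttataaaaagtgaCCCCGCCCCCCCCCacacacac
Nfix: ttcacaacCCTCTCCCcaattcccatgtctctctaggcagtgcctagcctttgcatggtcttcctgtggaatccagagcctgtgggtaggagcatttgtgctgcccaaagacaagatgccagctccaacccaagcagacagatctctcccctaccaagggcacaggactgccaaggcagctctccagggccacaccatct
The Hoxb and Myh9 windows held none of the 5 motifs. The window near Mical2 held 5 matches of the KLF letters, 4 of them overlapping in 1 run, and the Nfix window held 1.

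Promoters of 4 genes whose start site lay in a wide region are shown because their RNA is described further on and because they carry the motifs of the factors named above. Each runs from 250 bases before to 50 after the start site, as RefSeq gives it on GRCm38.p6, and is written 5′ to 3′ on the strand of the gene with the same capitals. The windows are Srf at chr17:46556113-46556412 (minus strand), Ddit3 at chr10:127290543-127290842 (plus strand), Nupr1 at chr7:126625421-126625720 (minus strand) and Ankrd1 at chr19:36119795-36120094 (minus strand).
Srf: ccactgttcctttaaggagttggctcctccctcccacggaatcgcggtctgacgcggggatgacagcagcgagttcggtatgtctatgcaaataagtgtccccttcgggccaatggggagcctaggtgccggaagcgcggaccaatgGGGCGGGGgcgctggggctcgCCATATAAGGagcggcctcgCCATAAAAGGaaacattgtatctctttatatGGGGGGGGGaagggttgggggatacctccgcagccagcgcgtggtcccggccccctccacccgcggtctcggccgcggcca
Ddit3: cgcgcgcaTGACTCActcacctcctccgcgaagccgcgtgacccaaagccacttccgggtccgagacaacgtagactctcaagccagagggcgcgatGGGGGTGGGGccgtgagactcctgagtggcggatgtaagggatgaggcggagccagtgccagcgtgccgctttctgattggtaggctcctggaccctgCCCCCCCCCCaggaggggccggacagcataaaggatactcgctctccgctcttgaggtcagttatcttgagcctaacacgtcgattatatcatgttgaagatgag
Nupr1: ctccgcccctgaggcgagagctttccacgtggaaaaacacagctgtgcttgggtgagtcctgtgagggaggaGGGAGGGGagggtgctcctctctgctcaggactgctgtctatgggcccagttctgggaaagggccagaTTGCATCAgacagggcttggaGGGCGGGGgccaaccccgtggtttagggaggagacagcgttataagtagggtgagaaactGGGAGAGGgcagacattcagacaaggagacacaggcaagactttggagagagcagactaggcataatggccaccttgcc
Ankrd1: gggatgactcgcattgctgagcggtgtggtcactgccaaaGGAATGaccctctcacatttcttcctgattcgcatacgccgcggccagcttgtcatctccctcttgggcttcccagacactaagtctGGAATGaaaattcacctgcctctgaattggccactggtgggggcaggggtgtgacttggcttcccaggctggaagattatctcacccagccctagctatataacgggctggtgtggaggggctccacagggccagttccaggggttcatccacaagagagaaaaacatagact
Srf, the gene of serum response factor itself, held 2 CArG boxes starting at -82 and -62 from the start site. Ddit3, which encodes the stress factor CHOP, held 1 AP-1 match at -242. Nupr1, a small stress-induced chromatin protein, held the ATF4 letters once at -110, on the opposite strand. Ankrd1, a muscle ankyrin-repeat protein and a known target of YAP, held the TEAD letters at -210 and -123. Of the 88 genes named by rule, 60 matched a promoter in the RefSeq table.

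The length of the wide regions fell off steeply from a few very long ones. The median was 6554 bp, and the range was 5000 to 64820 bp. Most regions (1261) were shorter than 8000 bp, 268 reached 10000 bp and 28 reached 20000 bp. Just below the threshold stood regions near Cypt8 (4994 bp, 210.9 normalised tags), at Ckap4 (4994 bp, 288.1 tags) and at 1500012F01Rik and Snord12 (4998 bp, 323.9 tags). Just above it stood regions at Il6st (5000 bp, 524.2 tags), Bcor (5002 bp, 244.2 tags) and Cdc42ep1 (5002 bp, 346.2 tags).

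Tags, normalised by the authors to 10000000 per library, had a median of 444.9 per wide region and ranged from 110.9 to 6566.9. Wide regions were also denser than the others: the median was 64.8 tags per kb, against 28.4 in the 51274 narrower regions. The median fold over input was 8.85 in the wide and 5.93 in the narrower regions. Input tags per kb were higher too, with a median of 13.4 in wide and 9.62 in narrower regions. Among chromosomes, 3 held the most wide regions (137), and the share of regions that were wide ran from 1.87% on X to 4.68% on 19.

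**Figure D1:**
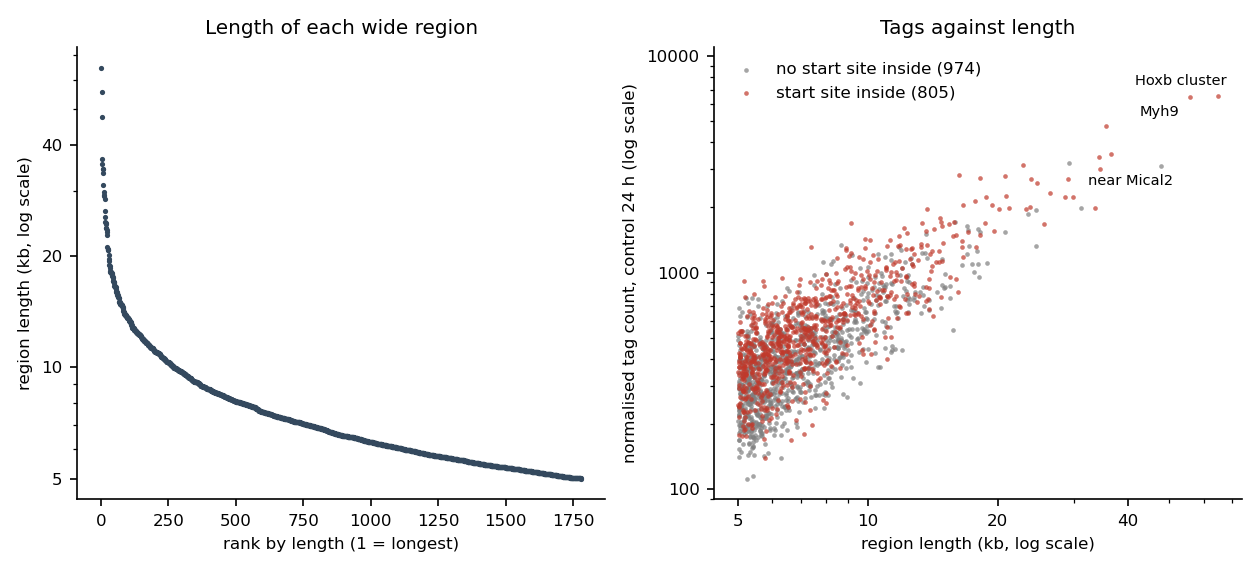
Length of each of the 1779 wide regions by rank (left, kb, log scale) and normalised tags against length in the control 24 h list (right, both axes on log scales), with 1 point per region coloured by whether a start site lies inside. A few regions, led by the Hoxb cluster at 64820 bp and Myh9 at 55824 bp, exceed most others several-fold, and 1261 are shorter than 8000 bp.

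The longest wide region covered 64820 bp of the Hoxb cluster (chr11:96291126-96355946), with the start sites of Hoxb2, Hoxb3, Hoxb4, Hoxb5, Hoxb6, the antisense transcript Hoxb5os and the microRNA gene Mir10a. Hox genes encode homeodomain factors that record position along the body axis. The region held 6566.9 tags in the control 24 h list, 2049 in the control 0 h list, 6586 at control 48 h, 7071.8 with cholesterol at 24 h and 6277.4 with cholesterol at 48 h. In the control 48 h list and both cholesterol lists 1 region overlapped it, whereas 13 separate regions covered 77.2% of it at 0 h. The ratio of cholesterol 24 h to control 24 h tags was 1.08 (95% interval 1.05 to 1.1, for counting error only).

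The RNA of the Hoxb genes changed little at 24 h. Hoxb6 was the highest, at 25.1, 24.6 and 26.1 RPKM in the control 24 h libraries and 23.1, 27 and 25.2 with cholesterol. These values overlapped. At 48 h Hoxb2 measured 10.3 and 8.17 RPKM in control and 15.2, 11.1 and 13.2 with cholesterol, without overlap, a log2 difference of 0.47 ± 0.11 (SE; limma, adjusted p = 0.00883). Hoxb5os rose as well (0.23 ± 0.051, limma, adjusted p = 0.0061), but reads of this antisense gene and of Hoxb5 and Hoxb6, which it overlaps, cannot be told apart unless strand was used in counting, which is not given in the sources used here. Hoxb3, Hoxb4, Hoxb5 and Hoxb6 did not pass the test at either time, and Mir10a was not tested because of low counts.

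A pair of Hoxa stretches stood next to each other on chromosome 6. The first (chr6:52157772-52193380, 35608 bp, 4767.2 tags) held, among others, the start sites of Hoxa2, Hoxa4 and the noncoding genes Hotairm1 and Hoxaas2. The second (chr6:52194194-52227858, 33664 bp, 1978.1 tags) held those of Hoxa3, Hoxa5, Hoxa6, Hoxa7, Hoxa9, Hoxaas3 and Mira. The density differed between the neighbours, at 134 tags per kb in the first and 58.8 in the second. Hoxa2, Hoxa3, Hoxa4, Hoxa5, Hoxa6, Hoxa7, Hotairm1, Hoxaas2 and Mira did not pass the test at either time, and Hoxa9 and Hoxaas3 were too low to be tested.

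Myh9, which encodes the heavy chain of nonmuscle myosin IIA, lay under the second longest region (chr15:77788087-77843911, 55824 bp). It held 6477.9 tags in the control 24 h list, 1361.4 at 0 h, 6733.7 at control 48 h, 7097.5 with cholesterol at 24 h and 6522.4 at 48 h. The 0 h library was the low one, with 16 separate regions covering 62.1%. Myh9 RNA measured 15, 15.9 and 14.8 RPKM in control and 14.3, 15 and 14.6 with cholesterol at 24 h. At 48 h it measured 19.8 and 19.5 in control and 15.4, 17.8 and 20.1 with cholesterol, and neither time passed the test (limma, adjusted p = 0.913 and 0.546).

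The region near Mical2 (chr7:112263079-112310815, 47736 bp, 3110.1 tags) held no start site, and the nearest start, that of the actin-oxidising enzyme Mical2, lay 37243 bp away. Only 32.1% of it was covered at 0 h, against 95.4% to 97.8% in the other lists. Nfix, a nuclear factor I transcription factor, lay under 36548 bp (chr8:84764037-84800585), and its RNA fell at 48 h from 10.5 and 10.6 RPKM to 7.51, 8.29 and 8.87 (log2 difference -0.32 ± 0.11, limma, adjusted p = 0.0426). The remaining regions among the 10 longest lay at Malat1 (34530 bp), Smad7 (34364 bp), near Smad6 (31156 bp, 36603 bp from its start) and at Synpo (29816 bp). Malat1 is a nuclear noncoding RNA, Smad6 and Smad7 are inhibitors of BMP and TGF-beta signalling, and synaptopodin binds actin. Their RNA did not pass the test at either time, the largest difference being in Synpo, which measured 61.7 and 59.3 RPKM in control and 33.8, 46.0 and 51.7 with cholesterol at 48 h (log2 difference -0.48 ± 0.18, limma, adjusted p = 0.0799).

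Of the wide regions, 805 (45.3%) held a gene start site, against 17.4% of the narrower regions. Of these, 667 held 1 start site, 138 held 2 or more, and the most in 1 region was 7. The other 974 regions (54.7%) held none, and the farthest lay 1071295 bp from any start site. Among the regions without one, 544 overlapped a gene body by 1 bp or more, and the median distance to the nearest start was 24174 bp. Regions with a start site were slightly longer (median 6878 bp) than those without (6355 bp). The centre of a wide region fell in an intron in 65.1% of cases and between genes in 20.9%, against 52.1% and 35.4% for narrower regions.

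Some genes had several wide regions around them. Smad6 was the nearest gene of 7 wide regions, with 70570 bp in all, and Fam198b of 7, with 68172 bp. Pdlim5 and Fez2 were nearest to 6 each, while Tns1, Lrrfip1, Irf2bp2, Cxcl12, Cald1 and Csf1 were nearest to 5 each. Tns1 and Cald1 encode the focal adhesion protein tensin and the actin-binding protein caldesmon, Cxcl12 is a chemokine and Csf1 a macrophage growth factor. In RNA, Irf2bp2 rose at 48 h (log2 difference 0.40, limma, adjusted p = 0.00104), as did Lrrfip1 (0.27, adjusted p = 0.0106) and Pdlim5 (0.22, adjusted p = 0.0367). Smad6, Fam198b, Fez2, Tns1, Cxcl12, Cald1 and Csf1 did not pass the test at either time. Of the 1779 regions, 240 lay within 10000 bp of the next wide region.

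The sequence at the centre of wide regions differed little in base composition from that of narrower regions, with 48.9% and 48.7% GC. The AP-1 letters stood in 9.27% of wide and 11.7% of narrower centres, the TEAD letters in 16.1% and 14.6%, the KLF letters in 31.0% and 26.3%, the CArG box in 2.02% and 1.52% and the ATF4 letters in 0.393% and 0.597%. With regions split by whether they held a start site, some of these differences turned. Among regions with a start site, the KLF letters stood in 40.6% of wide and 57% of narrower centres and AP-1 in 7.45% and 3.55%, both the other way round from the whole. Among those without one, KLF stood in 23.1% and 19.8% and AP-1 in 10.8% and 13.4%. Narrower regions with a start site had centres of 62.7% GC with a median of 16 CpG, against 52.3% GC and a median of 4 CpG in wide regions with a start site. Over whole promoters, the KLF letters stood in 78.0% of the 954 promoters of genes that start in a wide region and in 49.5% of all 32817 promoters. The CArG box stood in 1.68% and 1.63%, TEAD in 15.8% and 14.7%, and AP-1 in 6.08% and 7.81%. All promoters include those of genes that start in narrower regions or in none, and no share was taken for genes of narrower regions alone. GC content was not matched between these sets, and a match is a description of letters, not of binding.

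In the other lists the wide regions were nearly all present, and they were covered more fully than narrower ones. The control 48 h list covered 87.8% of their bases (narrower regions 61.5%), the cholesterol 24 h list 88.3% (65.3%), the cholesterol 48 h list 84.9% (56.4%) and the control 0 h list 43.2% (28.1%). Only 1 wide region at control 48 h, 1 with cholesterol at 24 h, 2 with cholesterol at 48 h and 39 at 0 h had no overlapping region. A longer region is more readily overlapped by chance, so shares of bases are set side by side here. These shares do not make the sets alike. The median fold over input was 8.85 in wide and 5.93 in narrower regions, where the caller required 4. Narrower regions thus stood closer to the cut-off, and the part of this in their lower coverage was not tested. Wide regions with a start site were covered more than those without, at 0 h (52.4% against 34.7%) and, by a smaller margin, with cholesterol at 24 h (90.5% against 86.3%).

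Width itself recurred less fully than presence. A region of at least 5000 bp overlapped 1285 of the 1779 regions at control 48 h (72.2%), 1333 with cholesterol at 24 h (74.9%) and 1187 with cholesterol at 48 h (66.7%), but 113 at 0 h. In all 3 of the later lists this held for 944 regions (53.1%), and in none of them for 225 (12.6%). Of the 518 regions of at least 8000 bp it held in all 3 for 429 (82.8%). The 0 h list broke wide regions up, with 1336 of them overlapped by 2 or more separate regions, against 512, 468 and 619 in the control 48 h, cholesterol 24 h and cholesterol 48 h lists.

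Tags in the overlapping regions were close to those of the control 24 h list except at 0 h. The median ratio to the control 24 h list was 1.02 at control 48 h, 1.09 with cholesterol at 24 h and 0.978 with cholesterol at 48 h, and 0.25 at 0 h. The summed length of the overlapping regions was 1.03, 1.03, 0.975 and 0.452 times that of the wide regions in the same order. Per kb of called region the median ratios were 1.06, 1.12, 1.05 and 0.594. Part of a low ratio is fixed by the choice, since the regions were taken for their width at control 24 h. The lower share of tags in regions at 0 h moved with the lower ratio there, and its part in the result was not tested.

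Few wide regions moved by 1.5-fold or more in tags with cholesterol. The tags are those of whole overlapping regions, parts outside the wide region included, so a region that joins a neighbour counts as higher. For example, a region near Csf1 (chr3:107747314-107752708) had 158.1 tags at control 24 h, 1078.5 at control 48 h and 1035.4 with cholesterol at 24 h. Its bases were covered to 72.3% and 56.4% in the last 2 lists. At 24 h, 114 of 1779 (6.41%) were at least 1.5-fold higher and 12 (0.674%) at least 1.5-fold lower, where over all 53053 regions of the list the shares were 12.6% and 6.58%. At 48 h against the same control 24 h list, 79 (4.44%) were higher and 60 (3.37%) lower, against 8.26% and 10.9% of all regions. The control 48 h list gave 114 higher and 27 lower, against 10.7% and 9.11% of all regions. In the 0 h list 1729 were lower and none higher, against 31.2% and 5.03% of all regions. Regions with no overlapping region have no ratio and are not among the lower ones. They were 56.0% of the narrower regions at 0 h, 36.7% at control 48 h, 34.7% with cholesterol at 24 h and 40.6% with cholesterol at 48 h, against 2.19% or less of the wide regions, so the shares of all regions that were lower leave out what was lost altogether. Wide regions hold more tags than the others, which leaves less counting error in their ratios, and the part of this in the smaller shares was not tested.

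**Figure D2:**
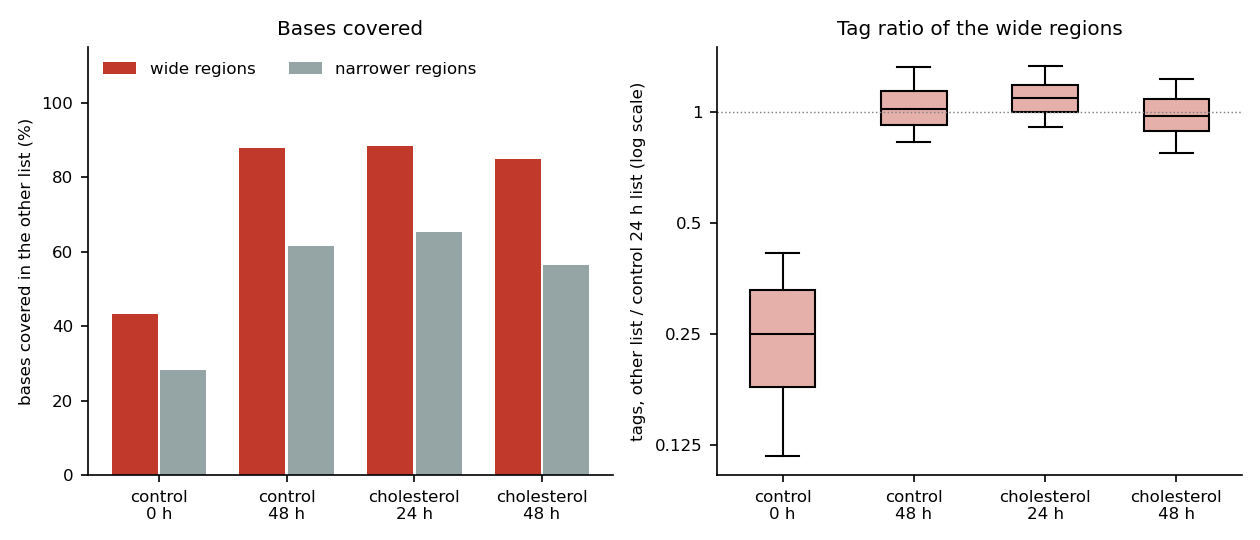
Bases of wide (red) and narrower (grey) regions of the control 24 h list covered in each other list, as a percent (left), and the ratio of tags in overlapping regions to the control 24 h list for wide regions (right, log scale; box, quartiles and median; whiskers, 10th to 90th percentile; regions with no overlap are left out). Coverage of wide regions is 84.9% to 88.3% in the 3 later lists and 43.2% at 0 h, and the median ratio is 0.25 at 0 h and 0.978 to 1.09 elsewhere.

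The wide regions least covered in the cholesterol lists were poor in tags to begin with. A region with the start sites of Ripk2, a kinase of innate immune signalling, and A530072M11Rik (5764 bp, 230.8 tags) was covered to 72.9% at control 48 h, 50.2% with cholesterol at 24 h and not at all at 48 h. Ripk2 RNA fell slightly at both times (log2 difference -0.18 and -0.16, limma, adjusted p = 0.0294 and 0.0264). Others were regions near Mir3074-1 (110.9 tags), Trex2 (139.8 tags) and Tbl1xr1 (143.8 tags).

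At the other end, regions at Myl12a and Myl12b, myosin regulatory light chains (14854 bp), at Itpripl2 (14246 bp), near Cox4i2 (13550 bp), near Scgb1a1 (13166 bp) and near Capzb (12796 bp) were covered to 100% in both cholesterol lists. The region near Capzb, 13144 bp from the start of this actin capping gene, became part of longer regions with cholesterol. It held 772.9 tags over 12796 bp at control 24 h and 699.8 over 13644 bp at control 48 h, but 1285.7 over 21848 bp with cholesterol at 24 h and 1961 over 33428 bp at 48 h. The density hardly moved, at 60.4, 51.3, 58.8 and 58.7 tags per kb, so the added tags came with added length.

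Wide regions also stood at genes with almost no RNA. Erg and Cdh5, which define endothelial cells, had start sites in wide regions of 7968 bp (250.3 tags) and 6620 bp (168.6 tags), neither overlapped by any region at 0 h. Their mean RNA was 0.0694 and 0.148 RPKM at control 24 h. Of the 6 endothelial markers, 2 started in wide and 2 in narrower regions, and none was at 0 in every library of a group. At 48 h Erg was lower with cholesterol (0.0742 and 0.162 against 0.0307, 0.0325 and 0.0343 RPKM, limma, adjusted p = 0.00863), and the summed endothelial markers were 0.491 to 0.529 RPKM in control and 0.303 to 0.376 with cholesterol. Of the other endothelial markers, Tek fell too at 48 h (limma, adjusted p = 0.000586), while Cdh5, Pecam1, Kdr and Vwf did not pass the test, with ratios of 0.941, 1.74, 1.14 and 0.689. At 24 h Tek had gone the other way, with means of 0.281 RPKM with cholesterol and 0.174 in control (limma, adjusted p = 0.0023). Vwf was lower at 24 h (0.0197 against 0.0415 RPKM, adjusted p = 0.0385). Erg, Tek and Vwf are named here for their calls. The part of other cells in these values was not tested, and fewer cells of a type and less RNA per cell cannot be told apart in bulk samples. Of the 968 genes with a start site in a wide region, 43 were below 0.1 RPKM at control 24 h.

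Genes that start in wide regions were more highly expressed than other genes. Of these 968 genes, 896 (92.6%) passed the filter on low counts and were tested. Their median level at control 24 h was 5.61 RPKM (5.49, 5.71 and 5.61 in the 3 libraries), against 2.15 for genes that start in a narrower region and 0.642 for tested genes that start in no region. It was 9.13 RPKM for the 176 tested genes in regions of at least 10000 bp, and 2.08 for the 405 tested genes that are only nearest to a wide region. Among all tested genes ranked by level, 2.25% of the lowest 20% and 16.6% of the highest 20% started in a wide region. The level is per length of the gene body with introns, and a long gene is therefore set lower than its mature RNA would be. These are descriptions of gene sets, and no test was made of them.

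**Figure D3:**
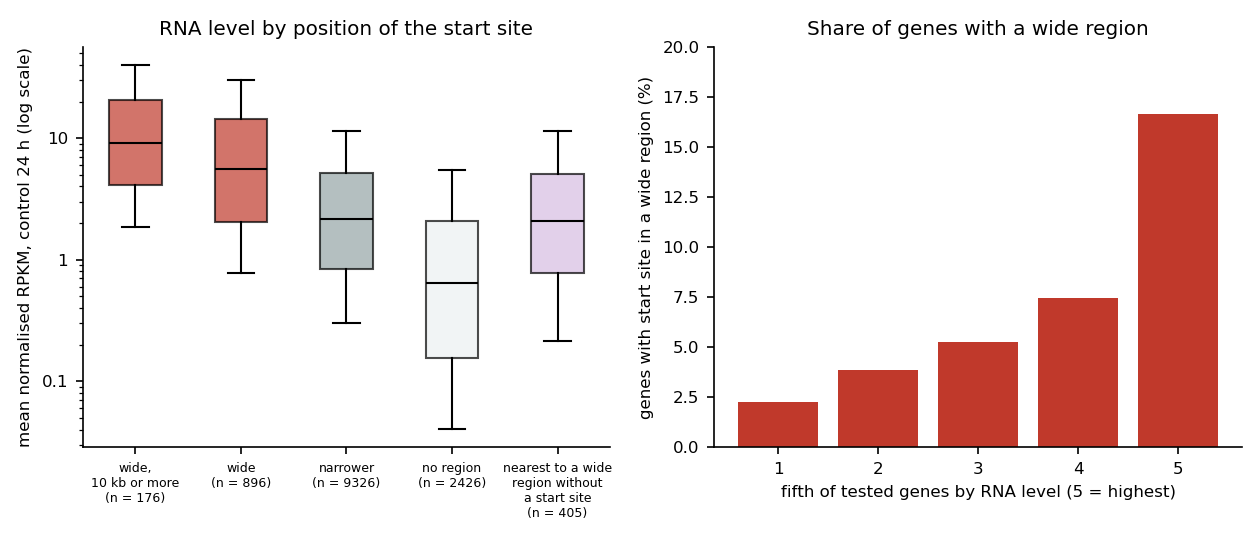
Mean normalised RPKM at control 24 h of tested genes by where their start site lies (left, log scale; box, quartiles and median; whiskers, 10th to 90th percentile; n, genes) and the share of tested genes that start in a wide region by band of RNA level (right, percent; each band holds 20% of the tested genes). The median is 5.61 RPKM for wide, 2.15 for narrower and 0.642 for no region, and the share goes from 2.25% in the lowest to 16.6% in the highest band.

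By rule, the 8 start-site genes with the highest RNA at control 24 h were Ctgf, Actb, Malat1, Pcbp1, Cyr61, Gpx1, Tubb5 and Flna. Ctgf, a secreted matricellular factor, measured 130, 139 and 138 RPKM in control and 122, 134 and 131 with cholesterol at 24 h. Cyr61, its close relative, measured 85.2, 91.3 and 91.8 in control and 83.1, 88.6 and 89.3 with cholesterol. Both are targets of YAP with TEAD, and neither passed the test at 24 or 48 h (limma, adjusted p = 0.924 and 0.977 for Ctgf, and 0.953 and 0.811 for Cyr61). The other 6 did not pass it either. At 0 h these genes varied more between libraries, for example Ctgf with 241, 166 and 128 RPKM. Control 0 h replicate 1 had the fewest tags in genes of the RNA libraries (2726790). For its comparison with cells in vivo the study set this replicate aside, since it did not group with the others of its condition. Here it was kept, and it enters the spread shared by all tests at 24 and 48 h.

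At 24 h of cholesterol, 22 of the 896 genes rose (2.46%) and 31 fell (3.46%), where over all 12648 tested genes 2.48% rose and 2.96% fell (5.44% in either direction). At 48 h, 113 rose (12.6%) and 146 fell (16.3%), against 11.9% and 12.9% of all tested genes (24.8% in either direction). In this fit the shares were near the background at 24 h, and 16.3% against 12.9% fell at 48 h. The counts depended on the fit. With only the groups compared, 71 rose and 143 fell at 24 h (7.92% and 16.0%, against 7.7% and 9.09% of all tested genes) and 50 and 56 at 48 h (5.58% and 6.25%, against 4.52% and 5.82%), and with array weights 90 and 178 at 24 h (10.0% and 19.9%, against 11.8% and 13.2%). In bands of 20% of the tested genes from the lowest to the highest level, 17.5%, 28.9%, 27.8%, 34.0% and 28.5% of wide-region genes passed the test at 48 h, against 22.6%, 24.2%, 22.1%, 24.3% and 21.3% of narrower-region genes, and the lowest band held 57 wide-region genes. The median log2 difference over the 896 genes was -0.03 at 24 h and -0.04 at 48 h, against -0.0024 and -0.0017 over all tested genes. Without further normalisation of the deposited RPKM the counts were 28 and 28 at 24 h (3.12% each, against 2.53% and 2.17% of all tested genes). At 48 h they were 136 and 124 (15.2% and 13.8%, against 12.5% and 10.1%). Which direction had more genes therefore rested on the scaling, in the start-site genes and over all tested genes. These counts moved with single libraries. At 24 h they were 7 to 11 higher and 9 to 17 lower without any 1 of the 6 libraries compared. The shares were 0.781% to 1.23% and 1.00% to 1.9%, against 1.11% to 1.44% and 1.41% to 1.76% of all tested genes. Without cholesterol 48 h replicate 1 the counts were 39 and 55 (4.35% and 6.14%, against 3.87% and 4.31%). Without control 0 h replicate 1, 49 fell at 24 h (5.47%, against 3.87%). Leaving out either control 48 h library left 1 in that group. Fewer genes were then called at 48 h, among start-site genes and all tested genes alike.

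By rule the largest rises at 24 h included those of Nfil3, Ddit3, Ppp1r15a, Dusp1, Pim1, AI839979 and Cd68. Nfil3, a basic leucine zipper repressor tied to the circadian clock, lay in a wide region of 5410 bp (291.3 tags). Its RNA measured 1.04, 0.902 and 0.912 RPKM in control and 2.65, 2.64 and 2.42 with cholesterol at 24 h, and 0.593 and 0.762 against 5.00, 4.04 and 3.99 at 48 h. All cholesterol libraries were above all controls, with ratios of the means of 2.70 and 6.41. The log2 differences were 0.87 ± 0.078 and 1.67 ± 0.088 (limma, adjusted p = 3.22e-05 and 2.25e-07). Tags over its region were 609.6 with cholesterol at 24 h, 2.09 times those of control 24 h (95% interval 1.91 to 2.29, counting error only), and 444 at 48 h where control 48 h had 287.8. The called length grew as well, to 9388 bp at 24 h, and per kb the ratio at 24 h was 1.21.

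Ddit3, or CHOP, a factor of the endoplasmic reticulum stress response, lay in 8124 bp. It measured 11.6, 12 and 10.9 RPKM in control and 18.9, 19.4 and 19.7 with cholesterol at 24 h, and 11.7 and 11.0 against 31.9, 29.3 and 33.6 at 48 h. The groups did not overlap at either time, and the log2 differences were 0.71 ± 0.059 and 1.40 ± 0.066 (limma, adjusted p = 1.71e-05 and 1.22e-07). Tags over the region were 781.4 in control and 909.2 with cholesterol at 24 h, a ratio of 1.16 (1.09 to 1.24). Its promoter is among those printed above. Ppp1r15a, or GADD34, which brings a phosphatase to eIF2α during the same response, measured 21.8, 22.3 and 22.5 RPKM in control and 33.8, 38.3 and 36.4 with cholesterol at 24 h. At 48 h it measured 21.2 and 21.6 against 57.9, 56.7 and 56.3, again without overlap (log2 differences 0.68 ± 0.075 and 1.37 ± 0.084, limma, adjusted p = 0.000186 and 6.03e-07). Its tags were 441.3 in control and 558.5 with cholesterol at 24 h, but 437.7 and 422.2 at 48 h, when the RNA difference was larger.

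Dusp1, a phosphatase that turns off MAP kinases, rose from 14.4, 15 and 12.8 RPKM to 23.4, 21.4 and 22.9 at 24 h, and from 15 and 13.5 to 28.8, 30.9 and 28.3 at 48 h. It had however been at 27.9, 23.7 and 22.7 RPKM at 0 h, above both later controls. Other rises at 24 h by rule were Pim1, a survival kinase (log2 difference 0.58, limma, adjusted p = 0.00941), AI839979 (0.55, adjusted p = 0.0455), and Cd68, a lysosomal glycoprotein used as a macrophage marker (0.47, adjusted p = 0.0378). Each of these 3 calls at 24 h was lost on leaving out any 1 of several libraries. Without control 24 h replicate 3 or cholesterol 24 h replicate 2 the adjusted p was 0.0514 and 0.0512 for Pim1, and 0.119 and 0.182 for AI839979, and Pim1 was also lost without control 24 h replicate 2 (0.0512). AI839979 was lost under 16 of 24 settings, and Cd68 without any 1 of the cholesterol 24 h libraries or without control 24 h replicate 1 or 2 (0.0941 to 0.165). Cd68 measured 2.10 and 2.49 RPKM in control and 4.54, 5.29 and 5.26 with cholesterol at 48 h. The summed level of the 6 macrophage markers was 6.21 to 6.9 RPKM with cholesterol at 48 h and 4.1 to 4.16 in control. Most of the rise was Cd68 itself, with means of 5.03 and 2.29 RPKM. Csf1r measured 0.517 and 0.338 RPKM (limma, adjusted p = 0.0205), while Lyz2 went the other way, at 1.08 and 1.5 (adjusted p = 0.186). The defining genes Ptprc, Adgre1 and Itgam were at or below 0.00453 RPKM in every group mean, and only Cd68 started in a wide region.

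At 48 h, Gdf15, a secreted stress factor of the TGF-beta superfamily, joined the rises by rule. It measured 48.0 and 45.2 RPKM in control and 99.7, 88.6 and 94.1 with cholesterol, without overlap (log2 difference 1.00 ± 0.14, limma, adjusted p = 0.00034). At 24 h its difference of 0.43 did not pass the test (adjusted p = 0.0752). Plaur, the urokinase receptor, rose from 2.07 and 1.98 to 5.10, 4.61 and 4.51 RPKM (0.92 ± 0.080, adjusted p = 8.6e-06), and Cebpb, a leucine zipper factor of stress and inflammation, from 22.8 and 15.2 to 44, 27.6 and 36.2 (0.89 ± 0.20, adjusted p = 0.0064). Cebpb did not pass with only the groups compared in the fit. Its call was also lost without control 48 h replicate 3, which left 1 library in that group. The uncharacterised gene 9130008F23Rik rose by 0.98 (adjusted p = 0.000116).

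The falls at 24 h were led by Fst, or follistatin, which binds activins. It measured 11.3, 13.1 and 12.3 RPKM in control and 7.43, 7.65 and 7.78 with cholesterol at 24 h, and 16.4 and 16.6 against 9.57, 9.09 and 10.4 at 48 h. Control was 1.61 times higher at 24 h and 1.70 times at 48 h without overlap (log2 differences -0.62 ± 0.067 and -0.71 ± 0.075, limma, adjusted p = 0.000155 and 3.92e-05), while its tags were 457.5 in control and 476.1 with cholesterol at 24 h. RNA fell and tags hardly moved there.

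Elovl6, a fatty acid elongase, fell from 1.53, 1.56 and 1.5 to 0.758, 0.751 and 0.747 RPKM at 24 h (log2 difference -0.53 ± 0.040, limma, adjusted p = 8.25e-06) and also passed at 48 h (-0.40, adjusted p = 5.52e-05). Tags over its region were 299.1 at control 24 h, 310.8 at control 48 h, 285.8 with cholesterol at 24 h and 114.9 with cholesterol at 48 h. The last was the low one, with 2468 bp called against 5498 bp at control 24 h. Srf fell from 15, 15.1 and 15 to 10.1, 11.8 and 10.6 RPKM at 24 h and from 14.9 and 14.2 to 12.1, 11.7 and 12.1 at 48 h (-0.44 ± 0.056 and -0.26 ± 0.062, adjusted p = 0.000493 and 0.00945). Tags over the Srf region were 460 at control 24 h, 494.9 at control 48 h, and 399.3 and 401.7 with cholesterol at 24 and 48 h, lower in both cholesterol lists than in either control of 24 or 48 h. Called length was lower too, 4558 bp with cholesterol at 24 h against 6536 bp, and per kb the ratio to control 24 h was 1.24 with cholesterol at 24 h, 1.11 with cholesterol at 48 h and 1.31 at control 48 h.

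Tmpo, which encodes the nuclear lamina-associated protein LAP2, fell from 8.14, 8.44 and 8.23 to 5.74, 5.68 and 5.94 RPKM at 24 h and from 8.46 and 8.46 to 4.10, 4.07 and 4.67 at 48 h (log2 differences -0.45 ± 0.049 and -0.84 ± 0.055, limma, adjusted p = 0.000155 and 8.69e-07). Dusp6, a phosphatase of ERK, fell at 24 h (-0.56, adjusted p = 0.0107), as did Fhl3, a LIM-domain protein (-0.47, adjusted p = 0.00451), Ston1, an endocytic adaptor (-0.43, adjusted p = 0.0147), and the transcript 3110039I08Rik (-0.42, adjusted p = 0.0111). At 24 h the calls of Dusp6, Ston1 and 3110039I08Rik were near the threshold: without control 24 h replicate 2 the adjusted p was 0.0564, 0.0674 and 0.0503. Dusp6 was also lost without cholesterol 24 h replicate 1 or 3 (0.051 and 0.0507), Ston1 without cholesterol 24 h replicate 2 or 3 or control 24 h replicate 1 (0.0509 to 0.0588), and 3110039I08Rik without cholesterol 24 h replicate 2 or control 24 h replicate 3 (0.053 and 0.0585). Dusp6, Fhl3, Ston1 and 3110039I08Rik also passed at 48 h, at -0.69, -0.27, -0.85 and -0.45.

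By rule the largest falls at 48 h were Aqp1, Lrrc75b, Cxxc5, Plekhg2, Ston1, Tmpo, Sox9 and Col8a1. Aqp1, a water channel, measured 23.6 and 21.1 RPKM in control and 9.53, 9.53 and 10.6 with cholesterol (log2 difference -1.10 ± 0.14, limma, adjusted p = 0.000125). Tags over its region went the other way between the 48 h lists, at 37.5 in control and 163.9 with cholesterol, against 197.1 at control 24 h and 234.4 with cholesterol at 24 h. The control 48 h list was the low one, with 1308 bp called. Sox9, the chondrogenic factor, measured 58.7 and 61.4 RPKM in control and 32.1, 34.5 and 33.3 with cholesterol at 48 h (-0.83 ± 0.10, adjusted p = 0.000122), but 47.3, 47.9 and 46.0 against 41.3, 46.8 and 43.1 at 24 h with overlapping groups (adjusted p = 0.628). Lrrc75b (-0.996, adjusted p = 6.41e-06), Cxxc5 (-0.91, adjusted p = 3.59e-07), Plekhg2, a guanine nucleotide exchange factor (-0.91, adjusted p = 0.00104), and Col8a1, a short-chain collagen (-0.82, adjusted p = 1.77e-05), fell as well.

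**Figure D4:**
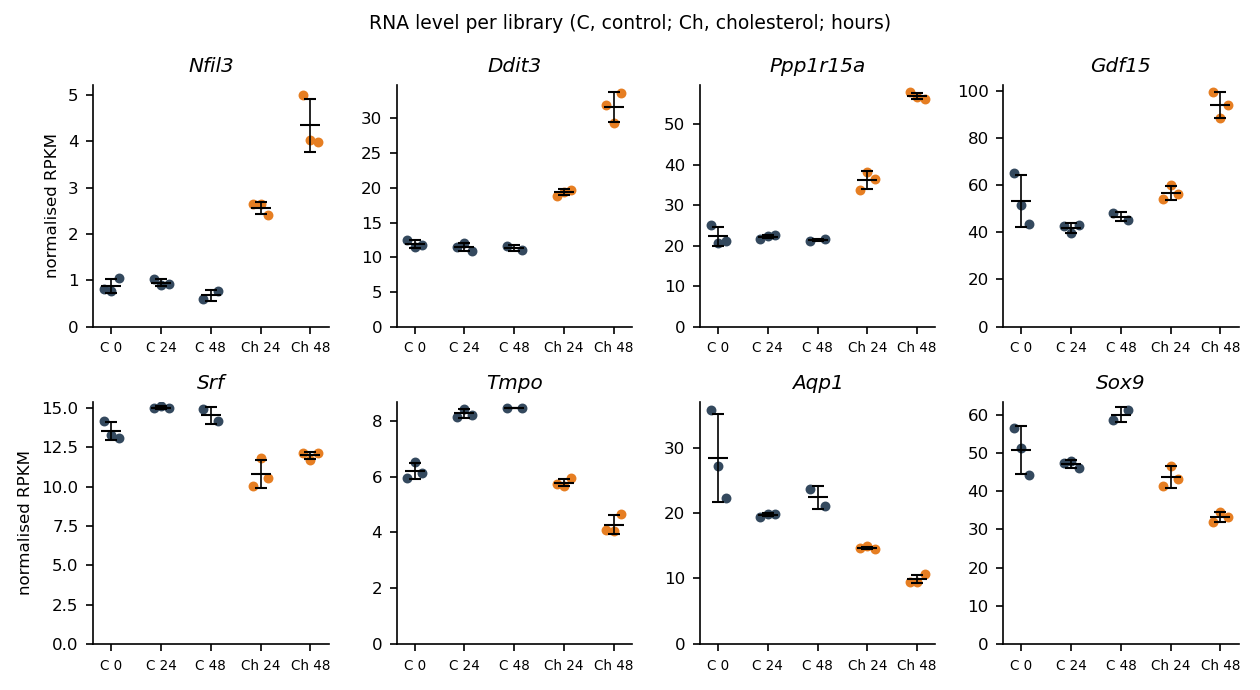
Normalised RPKM in each RNA library of 8 genes that start in wide regions (C, control; Ch, cholesterol; hours), with points for libraries, a bar for the mean and whiskers for 1 SD. The cholesterol libraries of Nfil3, Ddit3 and Ppp1r15a lie above all controls of the same time and those of Srf, Tmpo and Aqp1 below them, while Gdf15 and Sox9 stand furthest apart at 48 h.

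The effect of cholesterol differed between 48 and 24 h for 36 of the 896 genes (4.02%, against 5.36% of all tested genes), higher at 48 h for 22 and lower for 14 (2.3% and 3.06% of all tested genes). Without each library in turn this count ran from 19 to 61. It was 23, 19 and 22 without cholesterol 24 h replicates 2 and 3 and control 24 h replicate 2. These were 2.57%, 2.12% and 2.46%, against 3.48%, 3.41% and 3.31% of all tested genes. It was 61 without cholesterol 48 h replicate 1 (6.81%, against 6.84%). Without either control 48 h library it was lower too, as was the count over all tested genes.

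Genes of known programmes that start in wide regions were counted by list. Over all tested genes 7.08% started in a wide region, and the shares called over all tested genes are those given above (2.48% and 2.96% at 24 h, 11.9% and 12.9% at 48 h). With lists this short, the counts are descriptions. Of 20 contractile genes, 10 started in a wide region (Tpm1, Actn1, Cnn2, Flna, Tagln, Pdlim7, Acta2, Smtn, Tpm2 and Lmod1). Among these 10, none rose at either time, 1 fell at 24 h (Lmod1, -0.36, limma, adjusted p = 0.013) and 1 at 48 h (Smtn, -0.50, adjusted p = 0.000936), while over the whole list 4 fell at 24 h and 6 at 48 h. Lmod1 and Smtn are named here because of their calls. Acta2, the smooth muscle actin, lay in 6912 bp with 876.1 tags. It measured 32.0, 34.4 and 34.5 RPKM in control and 27.4, 28.4 and 29.0 with cholesterol at 24 h. These did not overlap but did not pass the test (limma, adjusted p = 0.483), and at 48 h the groups overlapped. Tagln was lower with cholesterol without overlap at both times and did not pass either (adjusted p = 0.678 and 0.453). The spread in this test is shared with control 0 h, where Acta2 measured 61.3, 42.1 and 35.0 RPKM. The summed smooth muscle markers were 131 to 138 RPKM at control 24 h and 108 to 114 with cholesterol at 24 h, and 167 against 128 to 148 at 48 h. Their part in the contractile genes was not tested.

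Of the SRF, myocardin and KLF list, 7 of 12 measured genes started in a wide region. Srf fell at 24 h, and at 48 h Klf9 (0.47, limma, adjusted p = 0.00431) and Klf4 (0.28, adjusted p = 0.0317) rose while Srf and Mkl1, a myocardin relative that carries actin signals to SRF (-0.31, adjusted p = 0.0111), fell. Klf4 measured 28.5 and 28.0 RPKM in control and 31.3, 36.7 and 36 with cholesterol. Klf6, in the longest region of the list (14654 bp), did not pass the test (0.19, adjusted p = 0.0942). In the AP-1 family 3 of 10 genes started in a wide region. Fosl2 rose at both times (0.40 and 0.71, adjusted p = 0.026 and 0.000361), Jun at 48 h (0.46, adjusted p = 0.0112), and Junb did not pass (0.11, adjusted p = 0.575). Of 14 TEAD and YAP genes, 8 started in a wide region, among them Amotl2, Axl, Ankrd1 and Crim1, and none passed the test at either time.

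Of 34 extracellular matrix genes, 14 started in a wide region, of which 1 fell at 24 h (Col8a1) and 3 at 48 h (Col8a1, Timp3 and Loxl3), and none rose. Loxl1, Bgn, Sparc and Fn1, in the longest regions of that list, did not pass the test at 48 h (log2 differences -0.01, -0.34, -0.26 and -0.23). Of 23 TGF-beta and BMP genes, 10 started in a wide region. Id2 fell at both times (-0.26 and -0.25, limma, adjusted p = 0.0377 and 0.0276) and Ski at 48 h (-0.24, adjusted p = 0.0418), while Tgfb2 (0.40, adjusted p = 0.0049) and Skil (0.20, adjusted p = 0.035) rose at 48 h. Of 26 receptors and growth factors, 10 started in a wide region, and 3 fell at 48 h: Jag1, a Notch ligand (-0.49, adjusted p = 0.00328), Edn1, or endothelin (-0.50, adjusted p = 0.00133), and Igf1r (-0.22, adjusted p = 0.0187).

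Among 40 mesenchymal and vascular transcription factors, 19 started in a wide region. At 48 h, 4 rose, namely Gata6 (0.23, limma, adjusted p = 0.0166), Foxc2 (0.47, adjusted p = 0.0017), Foxs1 (0.49, adjusted p = 0.0021) and Mef2d (0.34, adjusted p = 0.000718), and Sox9 and Snai1 (-0.50, adjusted p = 0.0012) fell. Snai1, a repressor of epithelial genes, had also fallen at 24 h (-0.29, adjusted p = 0.0473). None of the 23 cholesterol biosynthesis genes and none of the 9 LXR target genes, started in a wide region, where 7.08% of all tested genes did. Narrower regions held the start sites of 19 of the former and 8 of the latter, and in RNA all 23 of the former fell at 24 h. Of 26 ATF4 and ER stress genes, 6 started in a wide region (Nupr1, Ddit3, Cebpb, Ddit4, Atf4 and Atf5). Of these, Ddit3 rose at 24 h and Ddit3 and Cebpb at 48 h, where over the whole list 8 rose at 24 h and 20 at 48 h. Nupr1 measured 66.0 and 62.2 RPKM in control and 77.2, 73.5 and 83.9 with cholesterol at 48 h, which did not pass the test (0.28, adjusted p = 0.26). Malat1, Neat1 and Gas5, the noncoding genes of the last list that lay in wide regions, did not pass at either time.

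Tag ratios and RNA differences were set side by side for the same genes. Over the 896 start-site genes, the tag ratio of cholesterol 24 h to control 24 h and the RNA difference had a Spearman correlation of 0.249 and a Pearson correlation of 0.229, across genes that share libraries and in part regions. The median tag ratio was 1.19 for the 22 genes whose RNA rose, 1.05 for the 31 that fell and 1.09 for the 843 others. Of the 22, 17 stood above the median of the others, and of the 31, 24 stood below it. At 48 h, against the control 48 h list, the medians were 1.00, 0.937 and 0.953. The Spearman correlation was 0.17 and the Pearson correlation 0.0825 over 894 genes. Of the 113 genes that rose, 78 stood above the median of the others, and of the 145 that fell, 77 stood below it. For genes that start in narrower regions the medians were 1.24, 0.994 and 1.1 at 24 h, and 0.981, 0.919 and 0.953 at 48 h. With 1 H3K27ac library per condition these values have no error between replicates.

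**Figure D5:**
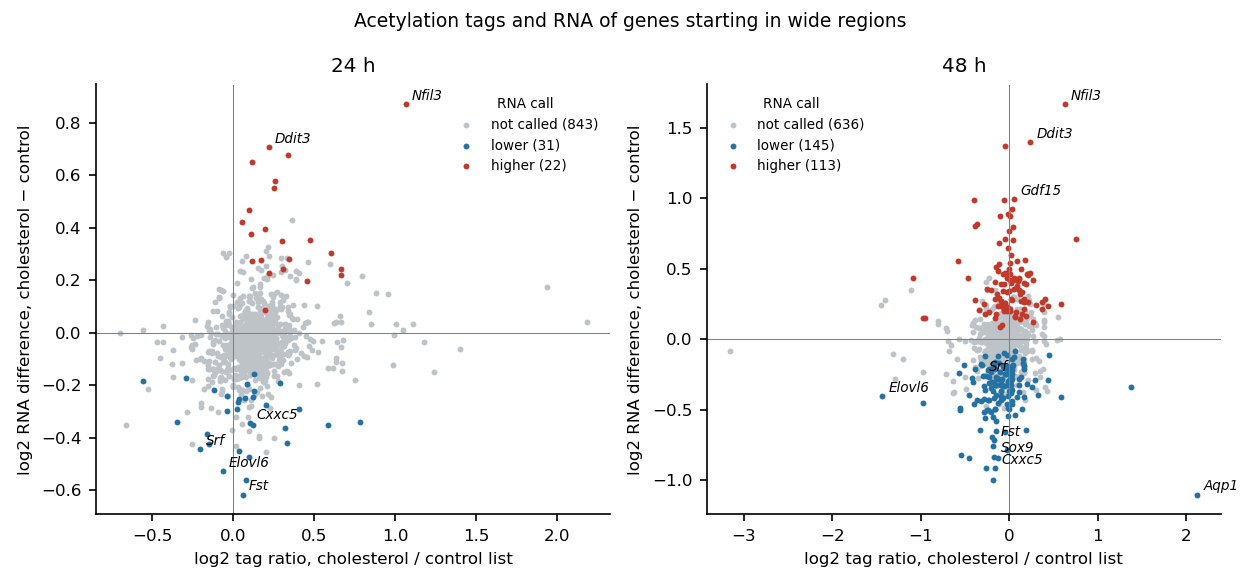
Log2 ratio of tags over overlapping regions, cholesterol to control list of the same time (x axis), against the log2 RNA difference between cholesterol and control (y axis), 1 point per gene that starts in a wide region, at 24 h (left, n = 896) and 48 h (right, n = 894), coloured by the RNA test. The genes that rose have a median tag ratio of 1.19 at 24 h and those that fell 1.05, and at 48 h Aqp1 has the highest tag ratio of the 145 genes that fell, of which 45 have a ratio above 1.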

How the data were processed

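H3K27ac ChIP and polyA RNA sequencing of cultured VSMCs gave 24 samples: 14 RNA, 5 H3K27ac and 5 input libraries. The submitters' processing notes name Bowtie2, STAR, HOMER, DESeq2 and mm10, without their versions. Regions had been called by the authors with HOMER in histone style on 1 library each against its input, so that ends are not exact edges of signal. The deposited region lists hold normalised tag counts (a signal per 10000000 tags), input tags, the fold (ratio) over input, p-values and scores. The RNA table was deposited as RPKM per transcript, which the authors computed over gene bodies, and the strand setting is not given.

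Length was end minus start. Bases and tags of regions overlapping a wide region by 1 bp or more were summed for each list, with 95% intervals from the tags for counting error only. Start sites came from the RNA table and places from GENCODE M21. The transcript with the highest mean stood for each gene. RPKM was scaled by median-of-ratios factors (0.904 to 1.06). Whole tags were recovered from the RPKM values (100% within 0.25 tag) to describe the depth of the RNA libraries. The filter on low counts did not use these recovered tags. It kept genes with more than 70 estimated reads in 1 library or more, which left 12648 of 24453 named genes. Reads were estimated from the mapped reads that the study lists per library. On average these exceed the recovered tags, so the cut-off in recovered tags mostly lay below 70. limma (version 3.58.1, R 4.3.3; eBayes with trend, Benjamini-Hochberg at 0.05 over all genes tested) was run on log2(RPKM + 1), with 1 mean per group and all 14 libraries, in place of the count test of the study because the values are not counts. Fold changes are on the log2(RPKM + 1) scale and understate the changes of low genes. The test was also run on simulated data in which each gene had the same spread in all groups. The fit assumes this, so unequal spread between groups was not checked. Python 3.11.15 with pandas 2.3.3, numpy 2.4.6 and pysam 0.24.0 did the rest.

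Members and gene lists were chosen with earlier results of these data known. Named regions were the 10 longest, the 5 least and 5 most covered in the cholesterol lists, those with no overlap (up to 5) and 3 on either side of 5000 bp. Named genes, of at least 1 RPKM, were the 8 largest rises and falls called at each time, the 8 highest at control 24 h, and members of the 12 lists in wide regions, with values for up to 4 in each. Genes with several wide regions around them, Ripk2, the markers and the list members past those 4 were named after their values were seen. The alternatives tried were another scaling, pseudocount, filter, fit, length minimum, overlap, window, gene assignment and leaving out each library. Some genes and 1 region that the rule names are not reported here.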

Additional observations from a re-analysis of the deposited data

Results flagged for a closer look

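The effect of cholesterol at 48 h minus that at 24 h, on the log2 scale, passed the test of the difference (limma, Benjamini-Hochberg over all genes tested) for 11 of the genes named by rule. All of them had been named for a large effect at 1 of these times, so that a difference between times is in part fixed by the choice. The effect was more positive at 48 h for Nfil3 (0.796 ± 0.117 SE, adjusted p = 0.00249), Ddit3 (0.694 ± 0.0885, adjusted p = 0.00132), Ppp1r15a (0.692 ± 0.113, adjusted p = 0.00429), 9130008F23Rik (0.731 ± 0.162, adjusted p = 0.0221) and Plaur (0.66 ± 0.108, adjusted p = 0.00424). It was more negative at 48 h for Tmpo (-0.394 ± 0.0733, adjusted p = 0.00894), Aqp1 (-0.699 ± 0.183, adjusted p = 0.0479), Lrrc75b (-0.696 ± 0.111, adjusted p = 0.00389), Cxxc5 (-0.565 ± 0.0696, adjusted p = 0.00106), Sox9 (-0.725 ± 0.138, adjusted p = 0.0101) and Col8a1 (-0.479 ± 0.105, adjusted p = 0.0206). Control 48 h held 2 libraries, and Sox9, Aqp1, Plaur and 9130008F23Rik did not pass the test at 24 h.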

How the results depend on the processing

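Of the 32 calls of named genes, 24 kept their call under each of 24 settings, 8 were lost under some and none was reversed. With a replicate block 1 of these calls, at 24 h, was lost, and no other call of a named gene changed. With only the groups compared in the fit, the start-site genes called at 24 h were 71 for rises and 143 for falls, and at 48 h 50 and 56. Their shares, and those of all tested genes, are given above. Voom weights gave 46 and 61 at 24 h (5.13% and 6.81%, against 5.33% and 5.72% of all tested genes). Array weights gave 90 and 178 at 24 h and 107 whose effect differed between times. These were 10%, 19.9% and 11.9%, against 11.8%, 13.2% and 11.1% of all tested genes. Taking the nearest gene of each region gave 57 that differed (4.87%, against 5.36% of all tested genes) and a median RNA level of 4.01 RPKM. No filter on low genes gave 5.02 RPKM. Leaving out each library gave 7 to 39 higher and 9 to 55 lower at 24 h, 69 to 160 and 70 to 189 at 48 h, and 19 to 61 that differed. The replicate numbers did not pair the samples (correlations of deviations from -0.137 to 0.0707), and with a replicate block the counts were 18, 26, 103, 116 and 31. These were 2.01%, 2.9%, 11.5%, 12.9% and 3.46%, against 2.07%, 2.49%, 10.9%, 11.5% and 4.2% of all tested genes.

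At a minimum of 4000 bp there were 3036 regions, with 52 genes lower at 24 h, 181 higher and 226 lower at 48 h, 61 that differed, and 4.6 RPKM. The shares were 3.66%, 12.7%, 15.9% and 4.29%, against 2.96%, 11.9%, 12.9% and 5.36% of all tested genes. Coverage was 86.1% at control 48 h and 82.9% with cholesterol at 48 h, and tag ratios were 0.259 at 0 h, 1.01 and 0.97. At 8000 bp there were 518 regions, with 6 higher and 7 lower at 24 h, 43 and 39 at 48 h, 8 that differed, and 8.86 RPKM. Shares here were 2.04%, 2.38%, 14.6%, 13.3% and 2.72%, against 2.48%, 2.96%, 11.9%, 12.9% and 5.36% of all tested genes. Counts follow the number of regions by construction.

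For the control 0 h, control 48 h, cholesterol 24 h and cholesterol 48 h lists in turn, coverage at 8000 bp was 46.0%, 91.0%, 91.1% and 88.8%, and tag ratios were 0.241, 1.04, 1.1 and 0.996. With a fold over input of 8 or more, 1124 regions had coverage of 37.9%, 71.8%, 80.6% and 58.4% and ratios of 0.210, 1.01, 1.08 and 0.971. Wide regions taken from the cholesterol 24 h list instead gave ratios to the control 24 h tags over the same regions of 0.249, 1.02, 1.11 and 0.977. Requiring most of an overlapping region (50% of its bases) to lie inside gave 0.246, 1.01, 1.08 and 0.965, and tags per kb, an alternative chosen after seeing the data, gave 0.594, 1.06, 1.12 and 1.05. In a 500 bp window, which is longer, AP-1 stood in 17.0%, TEAD in 30.6%, ATF4 in 1.07%, KLF in 52.1% and CArG in 3.32% of centres. With 1 H3K27ac library per condition, differences between lists cannot be set against replicate error.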
